A study of Mus musculus with 16 samples.

Results

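The 8 genes described here, Mbp, Pmp22, S100b, Sox10, Mal, Prx, Cnp and Ncmap, are genes of the Schwann cell and of the myelin it makes. They were taken by name from a counts table of 45706 Ensembl gene IDs, and each matched 1 ID. Their levels were followed in skin biopsies punched from the ears of 8 male C57Bl/6J mice, for which the labels name no treatment or allele, each sampled once at 24 months (exact ages 23.8 to 24.4 months) and once at 30 months (29.0 to 30.1 months), which gave 16 RNA-seq libraries. The second biopsy of a mouse came from its other ear, so age and ear cannot be told apart, and the 8 mice are all animals that reached the later age. The comparison asks what changed in the transcriptome within an individual late in life. An ear punch holds nerve fibres beside epidermis, glands, cartilage, vessels, muscle and pigment cells, and in such bulk RNA fewer cells of a type and less RNA per cell cannot be told apart.

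Schwann cells ensheath the axons of peripheral nerves. Those around large axons wrap them in compact myelin, a stack of membranes held together by a few abundant adhesion and cytoplasmic proteins, whereas those around small axons of the skin make no myelin. The transcription factor SOX10 is needed throughout the life of the lineage, and together with EGR2 and TEAD factors it drives the genes of myelin. Some of the 8 genes are also used by other cells of the ear: S100b by chondrocytes, Sox10 by pigment cells and Pmp22 by fibroblasts and epithelia.

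RefSeq promoter windows on GRCm38.p6, each with 250 bases before and 50 after a transcription start, were at hand for 6 of the 8 genes in 10 entries (4 for Pmp22, 2 for Ncmap). Mbp and Sox10 had none. Each window was searched on both strands for a SOX motif (ACAAAG), an EGR motif (GCGNGGGCG) and a TEAD motif (GGAATG), which do not overlap one another in these windows. Of 32851 promoters in the whole table, 18.7% held the SOX letters, 5.55% the EGR letters and 14.7% the TEAD letters. Prx, Mal, S100b and Cnp are printed because the changes described further on turn on them. The windows lie at chr7:27499074-27499373 on the plus strand for Prx, chr2:127656646-127656945 on the minus strand for Mal, chr10:76253586-76253885 on the plus strand for S100b and chr11:100574689-100574988 on the plus strand for Cnp. Capitals mark a match, and on the opposite strand the TEAD motif reads CATTCC.
Prx: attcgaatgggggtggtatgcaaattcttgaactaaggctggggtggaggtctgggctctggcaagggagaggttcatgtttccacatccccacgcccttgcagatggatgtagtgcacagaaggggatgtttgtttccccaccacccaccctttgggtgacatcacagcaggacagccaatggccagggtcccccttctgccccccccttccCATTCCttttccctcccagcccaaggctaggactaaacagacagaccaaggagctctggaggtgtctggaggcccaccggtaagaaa
Mal: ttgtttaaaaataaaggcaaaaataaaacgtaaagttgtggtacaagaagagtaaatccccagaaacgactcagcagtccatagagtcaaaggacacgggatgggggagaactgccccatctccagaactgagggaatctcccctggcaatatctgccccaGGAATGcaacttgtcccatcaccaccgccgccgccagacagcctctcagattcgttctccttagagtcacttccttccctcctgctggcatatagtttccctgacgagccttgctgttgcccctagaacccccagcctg
S100b: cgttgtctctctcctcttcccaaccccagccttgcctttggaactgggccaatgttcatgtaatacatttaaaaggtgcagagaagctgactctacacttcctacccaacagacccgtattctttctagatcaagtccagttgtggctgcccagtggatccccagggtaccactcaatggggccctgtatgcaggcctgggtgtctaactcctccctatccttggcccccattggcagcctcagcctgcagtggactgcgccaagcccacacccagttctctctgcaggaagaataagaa
Cnp: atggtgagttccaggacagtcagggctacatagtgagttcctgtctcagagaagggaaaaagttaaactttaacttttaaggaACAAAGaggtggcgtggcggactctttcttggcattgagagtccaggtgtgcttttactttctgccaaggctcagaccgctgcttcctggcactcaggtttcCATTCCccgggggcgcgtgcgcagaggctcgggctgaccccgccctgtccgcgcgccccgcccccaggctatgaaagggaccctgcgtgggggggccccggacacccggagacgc
Prx, Mal, Cnp and 1 of the 4 Pmp22 windows held 1 TEAD match each, so 4 of the 10 windows, from 4 of the 6 genes, had 1. The shares over all promoters count windows and not genes. Cnp also held 1 SOX match. No EGR match was found in any of the 10 windows, and neither S100b nor Ncmap held any of the 3 motifs. A match is a run of letters and was not tested for binding.

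The libraries held 22967222 to 36162431 reads on genes. The 30-month libraries of mice 50 and 29 stood furthest from the rest, with a median correlation to the other libraries of 0.972 and 0.974 (log2 scale, 21526 genes tested), against 0.982 to 0.992 for the other 14. The fitted folds, the counts of calls and the count of correlated pairs were therefore also computed with each mouse left out. Among nerve markers, all 14 further myelin genes and all 12 further Schwann cell genes examined had reads in each of the 16 libraries. In contrast, 5 of 14 axon and sensory neuron genes (Nefl, Nefm, Scn9a, Scn10a and Tac1) were at 0 in at least 1 library. A gene counts here with as few as 2 reads (Fabp7), and some of these genes are also used by other skin cells. The presence of reads is therefore a description and not a check of the tissue label.

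All 8 genes were measured in every library, from 149 reads (S100b in mouse 29 at 30 months) to 7715 reads (Pmp22), and all 8 passed the filter on low counts. Divided by exon length, and by library size (RPKM, from reads per kilobase of exon), Pmp22 had the highest level of the 8 genes at 79.4 ± 7.32 (SD, n = 16 libraries of 8 mice). S100b followed at 19.6 ± 7.42 RPKM and Mbp at 17.4 ± 2.05 RPKM. A lower group was formed by Cnp (5.97 ± 1.33 RPKM), Ncmap (5.62 ± 1.14), Prx (5.27 ± 0.991) and Mal (5.18 ± 0.883), and Sox10, the only transcription factor, was lowest at 3.58 ± 0.702 RPKM. The ranges of Pmp22 and S100b did not overlap, nor did those of Mbp and Cnp, and in both cases the order held in 16 of 16 libraries. S100b and Mbp could not be ordered, since S100b was higher in 9 of 16 libraries. Cnp, Ncmap, Prx and Mal also overlapped, and each pair of neighbours kept the order of their means in only 8 or 9 of 16 libraries. Mal exceeded Sox10 in 16 of 16 libraries, by a median ratio of 1.50 in RPKM, although their ranges over all libraries overlapped. The exon length is that of all annotated exons of a gene together, 8469 bases for Mbp and 1484 for S100b. Before that division Mbp had a mean of 148 CPM and S100b of 29.0 CPM. The order per length therefore depends on the length used. These levels are given as a description with no test.

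**Figure D1:**
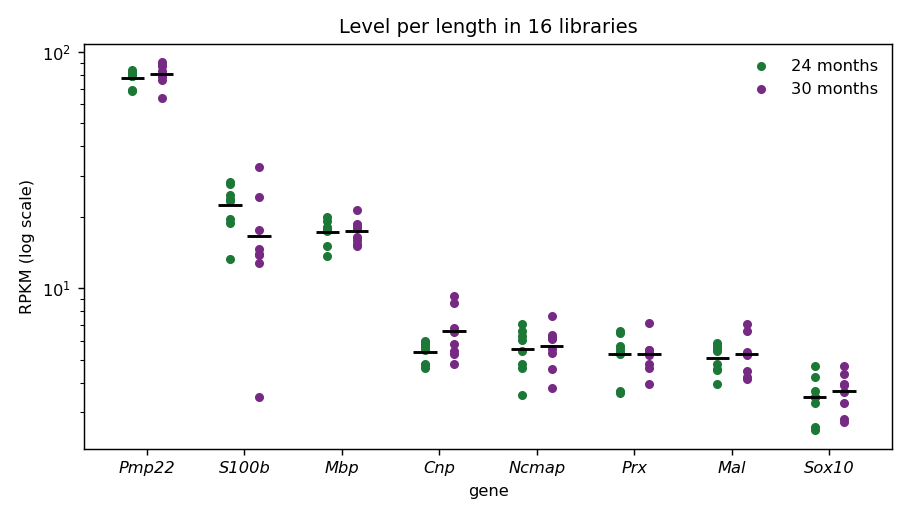
Level per exon length (RPKM, log scale) of the 8 genes in order of their mean, with 1 point per library, green for 24 months and purple for 30 months, and a black bar at the mean of each age. Pmp22 stands apart at the top, S100b spreads from 3.46 to 32.5 RPKM, and the other genes keep narrow ranges at both ages.

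None of the 8 genes was called between 24 and 30 months by the quasi-likelihood test of edgeR, blocked by mouse (adjusted p under 0.05 after Benjamini-Hochberg correction over all genes tested). The same test called none of the 21526 genes (0%), although 2593 genes (12%) had an unadjusted p under 0.05, and DESeq2's Wald test called 240 genes but again none of the 8. At the unadjusted threshold 1 of the 8 genes passed, Cnp, which was higher at 30 months; over all genes tested 1047 (4.86%) were higher and 1546 (7.18%) lower at that threshold, so that a single gene of 8 is near the background. The median log2 fold change of the 8 genes was 0.05, beside 0.01 over all genes tested, and the median size of their log2 fold change was 0.05, beside 0.12 over all genes tested. These sizes were not matched for level, and the genes tested include some with far fewer reads than any of the 8, such as Fabp7 with at most 16 per library. Fitted folds were above 0 on the log2 scale for 7 of the 8 genes, all but S100b, beside 11122 of the 21526 genes tested, and those of Mbp, Mal, Prx and Ncmap changed sign with 1 mouse left out.

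**Figure D2:**
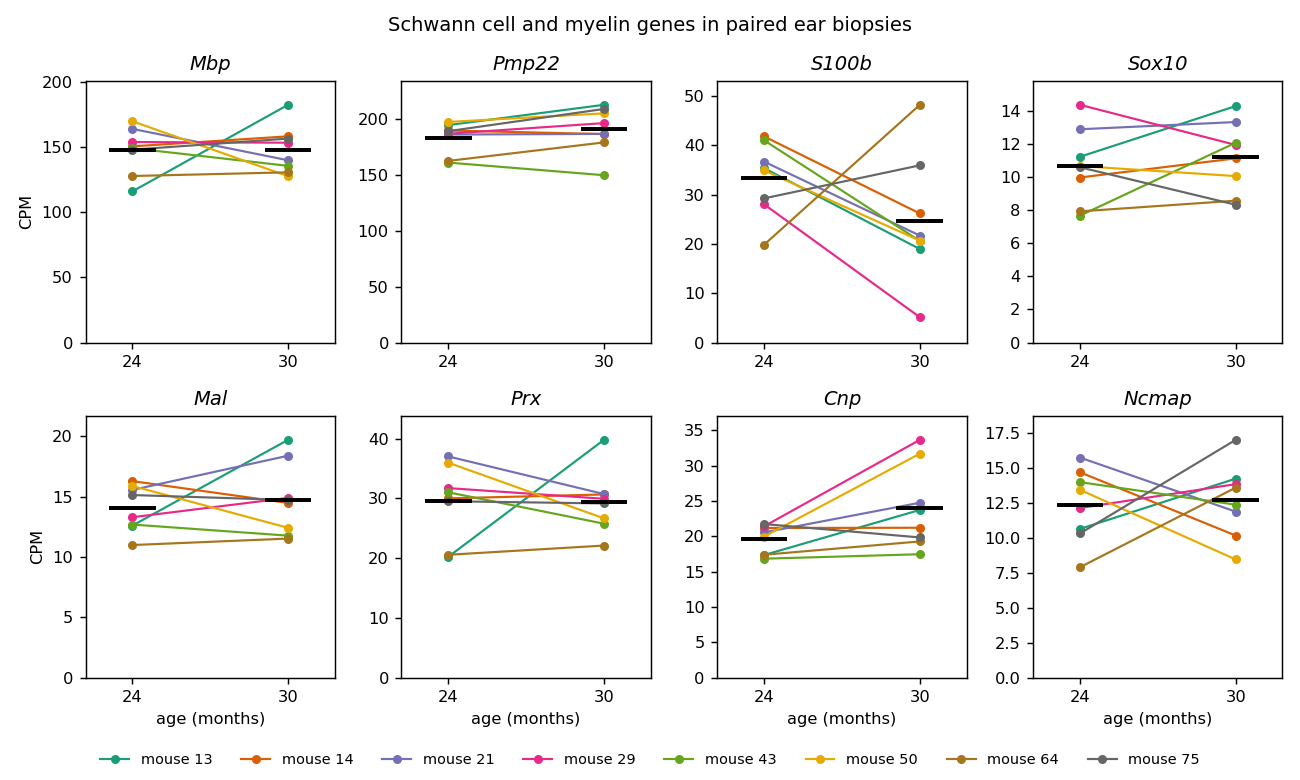
Read counts scaled to 1000000 reads per library (CPM, linear axis from 0) of each gene at 24 and 30 months, with a coloured line for each of the 8 mice and a black bar at the mean of each age. Lines cross in most panels; S100b is lower at 30 months in 6 mice and higher in mice 64 and 75, Cnp is higher in 7 of 8 mice, and mouse 13 has the steepest line upward in Mbp, Mal and Prx.

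Of the genes for structural proteins of compact myelin, Mbp (ENSMUSG00000041607, chromosome 18) encodes myelin basic protein, which binds the cytoplasmic faces of the myelin membrane together; its reads are counted with those of the longer Golli transcripts of the same locus. Mbp lay between 116 and 169.7 CPM (counts per 1000000 reads, with TMM-scaled library sizes), with a median of 149.7, at 24 months, and between 128 and 182 CPM, with a median of 146, at 30 months. The ages overlapped almost fully, and 4 of 8 mice were higher at 30 months. Its log2 fold change was 0.01 (SE 0.10, adjusted p = 0.986 by edgeR), with a 95% interval for the fold of 0.860 to 1.17. The largest gain was in mouse 13, from 116 CPM, the lowest value of all, to 182 CPM, the highest. Mouse 50 went the other way, from 169.7 to 128 CPM.

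Pmp22 (ENSMUSG00000018217, GRCm38 chromosome 11, 63128982 to 63159547) encodes peripheral myelin protein 22, a membrane protein of compact myelin extra or missing copies of which cause inherited neuropathies. Pmp22 lay between 161 and 197 CPM (median 188) at 24 months and between 149.6 and 213 CPM (median 191) at 30 months. It was the steadiest of the 8 genes, with 1.42-fold between the highest and the lowest of 16 libraries, and 6 of 8 mice were slightly higher at 30 months while the ages overlapped. The log2 fold change was 0.05 (SE 0.05, adjusted p = 0.695 by edgeR) and the 95% interval of the fold ran from 0.958 to 1.12.

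Mal and Ncmap are smaller membrane proteins of myelin. Mal (ENSMUSG00000027375, GRCm38 chromosome 2, 127633226 to 127656695), the myelin and lymphocyte protein of lipid-rich membrane domains, lay between 11 and 16.3 CPM (median 14.2) at 24 months and between 11.5 and 19.7 CPM (median 14.6) at 30 months. The ages overlapped and 4 of 8 mice were higher at 30 months, with mouse 13 again highest. Its log2 fold change of 0.06 (SE 0.11, adjusted p = 0.850 by edgeR) had a 95% interval of 0.883 to 1.22 for the fold. Ncmap (ENSMUSG00000043924, GRCm38 chromosome 4, 135369576 to 135398227), a noncompact myelin associated protein, ran from 7.88 to 15.7 CPM (median 12.8) at 24 months and from 8.44 to 17 CPM (median 13) at 30 months. Mice split evenly here, and their changes were wide: the log2 change reached 0.75 in mouse 64 and 0.70 in mouse 75 and was -0.64 in mouse 50. Ncmap's fitted log2 fold change was 0.04 (SE 0.18, adjusted p = 0.939 by edgeR), and the 95% interval of the fold, 0.783 to 1.35, was the widest after that of S100b.

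Prx and Cnp act at the membrane and cytoplasm of the myelinating cell. Prx (ENSMUSG00000053198, GRCm38 chromosome 7, 27499324 to 27520214) encodes periaxin, a scaffold that links the outer Schwann cell membrane to its surroundings. Its CPM ranged from 20.2 to 37.0 (median 30.5) at 24 months and from 22.1 to 39.8 (median 29.5) at 30 months. As with Mbp, mouse 13 went from the lowest to the highest of the 16 libraries, and 5 of 8 mice were lower at 30 months. The log2 fold change of Prx was 0.00 (0.0014, SE 0.13, adjusted p = 0.998 by edgeR) with a 95% interval of 0.814 to 1.23 for the fold. Prx shares exon sequence with the antisense gene Gm15541, on which 481 reads were counted in all libraries together.

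Cnp (ENSMUSG00000006782, GRCm38 chromosome 11, 100574904 to 100591729) encodes the enzyme 2',3'-cyclic nucleotide phosphodiesterase, which keeps cytoplasmic channels open in myelin. At 24 months it lay between 16.8 and 21.7 CPM (median 20.2), and at 30 months between 17.5 and 33.6 CPM (median 22.5). The ages overlapped, but 4 of the 30-month libraries, of mice 29, 50, 21 and 13, exceeded every 24-month value, and 7 of 8 mice were higher. The mean went from 19.5 ± 2.03 to 23.9 ± 5.89 CPM (SD, n = 8 mice), and the log2 fold change was 0.27 (SE 0.10, 95% interval of the fold 1.03 to 1.40). The unadjusted p was 0.0253 and the adjusted p 0.350 by edgeR, so the difference was not called over all genes tested. Exons of Cnp overlap those of Dnajc7 on the opposite strand, and the library kit does not mark strand. Whether reads of the shared stretch were counted for Cnp, for Dnajc7 or left out as ambiguous is not known, since the strand setting is not given.

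S100b and Sox10 mark the glial lineage rather than myelin itself. Sox10 (ENSMUSG00000033006, GRCm38 chromosome 15, 79154908 to 79165240) lay between 7.66 and 14.3 CPM (median 10.6) at 24 months and between 8.32 and 14.3 CPM (median 11.5) at 30 months. The ages covered the same range, and 5 of 8 mice were higher at 30 months. The log2 fold change of Sox10 was 0.08 (SE 0.11, adjusted p = 0.800 by edgeR), with a 95% interval of 0.886 to 1.26 for the fold.

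S100b (ENSMUSG00000033208, GRCm38 chromosome 10, 76253853 to 76261159), a calcium-binding protein used as a marker of Schwann cells and of cartilage, varied most of the 8 genes, 9.40-fold between its highest and lowest library. At 24 months it lay between 19.8 and 41.8 CPM (median 35.2) and at 30 months between 5.14 and 48.3 CPM (median 21.2). The ages overlapped, because mouse 64 went from the lowest 24-month value, 19.8 CPM, to 48.3 CPM, the highest of all, and mouse 75 went from 29.3 to 36.0 CPM. The other 6 mice were lower at 30 months, most of all mouse 29, from 28.1 to 5.14 CPM. The mean was 33.4 ± 7.34 CPM at 24 months and 24.7 ± 12.8 CPM at 30 months (SD, n = 8 mice). The log2 fold change of -0.61 (SE 0.32, adjusted p = 0.469 by edgeR) was not called, and the 95% interval of the fold, 0.400 to 1.07, still held a fall by more than 2-fold. Without mouse 64 the log2 fold change was -0.87, and without mouse 29 it was -0.37.

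**Figure D3:**
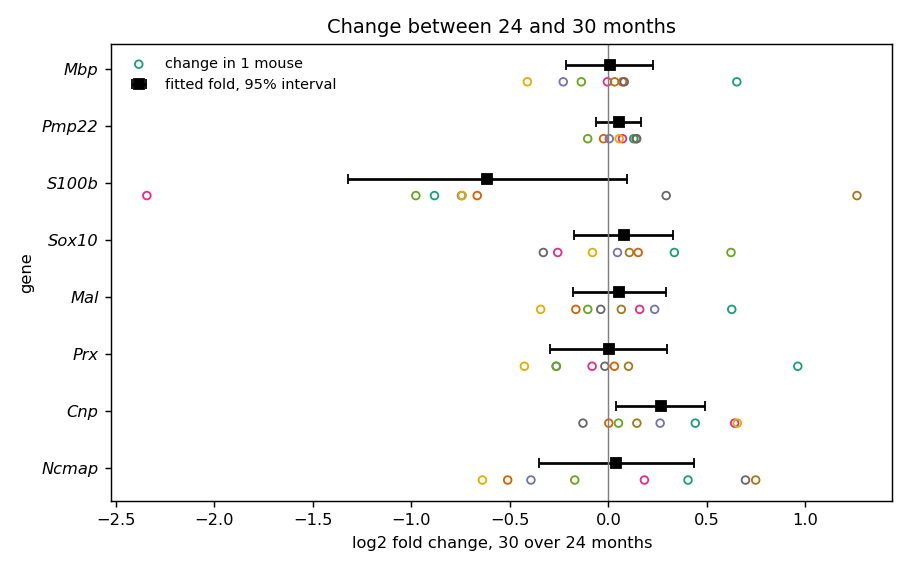
Fitted log2 fold change of each gene, 30 over 24 months (black squares), with its 95% interval, and the log2 change of each of the 8 mice as an open circle in the colour of that mouse. Only the interval of Cnp leaves out 0 (not corrected for the number of genes tested), and the circles of S100b spread from -2.34 to 1.26.

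None of the other genes of peripheral nerve examined was called either. Of the 14 further myelin genes none passed the unadjusted threshold in either direction, beside 4.86% higher and 7.18% lower over all genes tested. The median log2 fold change of the 14 was 0.06. The 3 of them with the most reads are also used by other cells of the skin. Egr2, the factor that switches on myelination and an early response gene of many cells, lay between 54.6 and 74.6 CPM (median 66.1) at 24 months and between 52.8 and 129.6 CPM (median 71.8) at 30 months. The ages overlapped and 4 of 8 mice were higher, with a log2 fold change of 0.17 (SE 0.12, adjusted p = 0.579 by edgeR). Fa2h, a hydroxylase of myelin lipids that sebaceous glands also use, had a log2 fold change of -0.12 (SE 0.28, adjusted p = 0.877 by edgeR), and Pou3f1, a factor of the step before myelination that keratinocytes also express, of 0.06 (SE 0.11, adjusted p = 0.844).

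Among the 12 further Schwann cell genes not tied to myelin, none was called, and the median log2 fold change was 0.05. At the unadjusted threshold 2 were higher and none lower, beside 4.86% higher and 7.18% lower over all genes tested. Erbb3, the neuregulin receptor that keratinocytes also carry, had a log2 fold change of 0.03 (SE 0.12, adjusted p = 0.938 by edgeR). L1cam, an adhesion molecule of nonmyelinating Schwann cells and axons, was at -0.06 (SE 0.09, adjusted p = 0.807) and Ngfr, the low-affinity neurotrophin receptor, at -0.30 (SE 0.16, adjusted p = 0.481). The 2 that were higher, Foxd3 (log2 fold change 0.35) and Fabp7 (0.65), are named after their values were seen and had few reads, at most 86 and 16 per library.

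Of 14 genes of axons and sensory neurons 9 passed the filter on low counts and none was called. Their median log2 fold change was 0.54, with 7 of the 9 above 0 and 2 below. At the unadjusted threshold 2 were higher and 1 lower, beside 4.86% higher and 7.18% lower over all genes tested. Stmn2, a microtubule regulator of growing axons, had a log2 fold change of -0.24 (SE 0.19, adjusted p = 0.611 by edgeR), Uchl1, a neuronal ubiquitin hydrolase, of 0.55 (SE 0.37, adjusted p = 0.562) and Tubb3, neuronal tubulin, of 0.37 (SE 0.19, adjusted p = 0.456). The genes at the unadjusted threshold, named after their values were seen, were Prph (log2 fold change 0.67), Gap43 (-0.56) and Calca. Calca lay at no more than 0.283 CPM in any 24-month library, with a 30-month median of 0.299 CPM and 1 library, of mouse 29, at 4.27 CPM, and without mouse 29 or mouse 14 it did not pass the filter on low counts, so its place among the 2 rests on few reads.

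Within mice, the changes of Mbp and Prx went together. Over the 8 mice, Pearson's r between the log2 changes of Mbp and Prx was 0.98 (exact permutation p = 0.000372, 0.0104 after Benjamini-Hochberg adjustment over 28 pairs of the 8 genes), and Spearman's rho was 0.90 (exact permutation p = 0.00456, adjusted 0.128), all two-sided. With the 2 mice farthest from the median of Mbp, 13 and 50, left out, r was 0.90 (exact permutation p = 0.0236), and with any 1 mouse left out it was 0.94 to 0.98. Mbp and Prx were the only pair with an adjusted p for r under 0.05, and with mouse 13, 29 or 50 left out no pair had one; by rho none had. Mal went with both in the full set (r = 0.77 with Mbp and 0.80 with Prx, exact permutation p = 0.0382 and 0.0304, adjusted 0.309 for both), but without mice 13 and 50 r was -0.50 and -0.28, so these relations rest on those 2 mice. Pmp22 and Ncmap had r = 0.73 (exact permutation p = 0.0441, adjusted 0.309), and 0.89 without mice 14 and 43.

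Over the 16 libraries Mbp and Prx also varied together in level. As a description, since the libraries share mice and depth, Pearson's r of log2 CPM was computed between each of the 8 genes and 15845 protein-coding genes. Prx was the gene most like Mbp and Mbp the gene most like Prx (r = 0.93), while by Spearman's rho each was at rank 3 for the other. Next for Mbp came Mgat3 (0.85), Vat1l (0.83), Kif1a (0.82) and Elp3 (0.81), and for Prx came Kif1a (0.91), Cadm4 (0.87), Akap1 (0.83) and Dnaja3 (0.82). Mal was nearest to Otub1 and Eif3d (both 0.82), Dhh and Gatm (both 0.81) and Tysnd1 (0.79), with Prx at rank 7; by rho Gatm was at rank 122 and Otub1 at rank 43. Of the 14 further myelin genes, 4 were among the 100 genes most like Prx (Mag, Drp2, Dhh and Ugt8a), 4 among the 100 most like Mal (Dhh, Cldn19, Gjb1 and Gjc3) and 3 among the 100 most like Mbp (Drp2, Ugt8a and Bcas1). The myelin list had its highest median r with Prx (0.60), followed by Mal (0.57) and Mbp (0.51). By Spearman's rho the numbers among the 100 nearest were 5 for Prx, 3 for Mal and 3 for Mbp.

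Sox10 was nearest to Ccdc61 and Acd (both 0.88), Tnfrsf22, Lman1l and Gcdh (all 0.85), with 1 further myelin gene, Gjc3, among its 100 nearest. Ncmap was nearest to Bcat1 (0.80), Spock3 (0.79), Dync1i1 (0.78), Mt3 and Nmnat2 (both 0.76), with no further myelin gene among its 100 nearest. Pmp22 was nearest to Gm3468 (0.80), Enpp5 (0.71), Cyb5d2 and Gm28551 (both 0.69) and Cnot8 (0.66), and 3 further myelin genes, Drp2, Ugt8a and Gjb1, were among its 100 nearest, against none by Spearman's rho, by which Cnot8 was at rank 348. Mal and Cnp were at ranks 25 and 34 for Pmp22, and at ranks 115 and 82 by rho.

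Of the 13 marker lists, S100b was most like cartilage. The genes most like it over the 16 libraries were Snorc (0.97), Col27a1 (0.94), Cdkn2c (0.93), Rimbp2 (0.91) and Col9a1 (0.91), of which Snorc and Col9a1 belong to the cartilage list. The cartilage list had a median r of 0.87 with S100b and 7 of its genes among the 100 nearest, whereas the myelin list had a median r of -0.14 and none. The pigment cell list came next after cartilage, with a median r of 0.54 and no gene among the 100 nearest. With Mbp and Prx themselves S100b had r of -0.06. Fitted log2 fold changes were below 0 for 12 of 12 cartilage genes tested, with a median of -0.46, while 11122 of all 21526 genes tested were above 0. A uniform direction was not particular to cartilage, since all 8 pigment cell genes were below 0 too. None of the cartilage genes was called and 6 were lower at an unadjusted p under 0.05, beside 7.18% of all genes tested. These genes were measured in the same libraries and are not separate observations. The list's summed level ran from 141 to 292 CPM (median 204) at 24 months and from 119.5 to 194 CPM (median 158) at 30 months, and Matn1 and Matn3 were at 0 in at least 1 library. Mice 64 and 75, in which S100b was higher at 30 months, were also the 2 in which the cartilage sum was not lower (log2 changes of 0.36 and 0.0095). Over the 8 mice r between the changes was 0.72 (exact permutation p = 0.0501, adjusted 0.652 over 104 relations of 8 genes with 13 lists), rho was 0.26 (exact permutation p = 0.536, adjusted 0.858), and r was 0.75 without mice 29 and 64, 0.35 without mouse 64 and 0.91 without mouse 29. Ncmap had a larger r with the cartilage sum, 0.79 (exact permutation p = 0.0109, adjusted 0.614) with rho 0.81 (exact permutation p = 0.0218, adjusted 0.854), and 0.40 without mice 64 and 75. By rank the largest relation of S100b was an inverse one with the sum of the further Schwann cell genes. Its rho was -0.79 (exact permutation p = 0.0279, adjusted 0.854) and its r -0.64 (exact permutation p = 0.0871, adjusted 0.714), or -0.35 without mice 29 and 64. The part of cartilage content in the S100b and Ncmap values was not tested.

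Of the same lists, Cnp was most like the endothelial genes of vessels. Its nearest genes were Arid5a (0.92), Abcb1a (0.91), Serpina3g (0.90), Tinagl1 (0.90) and Aldh1l1 (0.89), and of the endothelial list Pecam1, Cdh5 and Esam were among the 100 nearest, with a median r of 0.77 over the list. By Spearman's rho 1 endothelial gene was among the 100 nearest, and Serpina3g was at rank 121. The median r of the myelin list with Cnp was 0.36. Fitted log2 fold changes were above 0 for 8 of 8 endothelial genes, beside 11122 of the 21526 genes tested, with a median log2 fold change of 0.56. All 10 skeletal muscle genes were above 0 too. None of the endothelial genes was called and 5 were higher at an unadjusted p under 0.05, beside 4.86% of all genes tested. These genes were measured in the same libraries and are not separate observations. Their summed level ran from 118 to 176 CPM (median 143) at 24 months and from 124 to 345 CPM (median 204) at 30 months, and none of the 8 was at 0 in any library. The 4 mice with the highest Cnp change, 50, 29, 13 and 21, also had the 4 highest endothelial changes (log2 0.93 to 1.37). Over the 8 mice r was 0.79 (exact permutation p = 0.0279, adjusted 0.652 over 104 relations), rho was 0.69 (exact permutation p = 0.0694, adjusted 0.854), and r was 0.64 without mice 29 and 50 and 0.73 to 0.87 without any 1 mouse. By rank the largest relation of Cnp was with the differentiated keratinocyte sum, rho -0.76 (exact permutation p = 0.0368, adjusted 0.854), with r -0.74 (exact permutation p = 0.0442, adjusted 0.652), or -0.23 without mice 29 and 50. The highest Cnp values, 33.6 and 31.7 CPM, were in the 30-month libraries of mice 29 and 50, which stood furthest from the rest. Likeness over the 16 libraries was not computed without those libraries. Of all 104 relations the largest r in size was that of Mal with the macrophage sum, r = -0.86 (exact permutation p = 0.0118, adjusted 0.614) with rho -0.71 (exact permutation p = 0.0576, adjusted 0.854), and r was -0.43 without mice 13 and 50. None of the 104 relations had an adjusted p under 0.05 by r or by rho, and whether the Cnp difference lay in vessel cells was not tested.

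**Figure D4:**
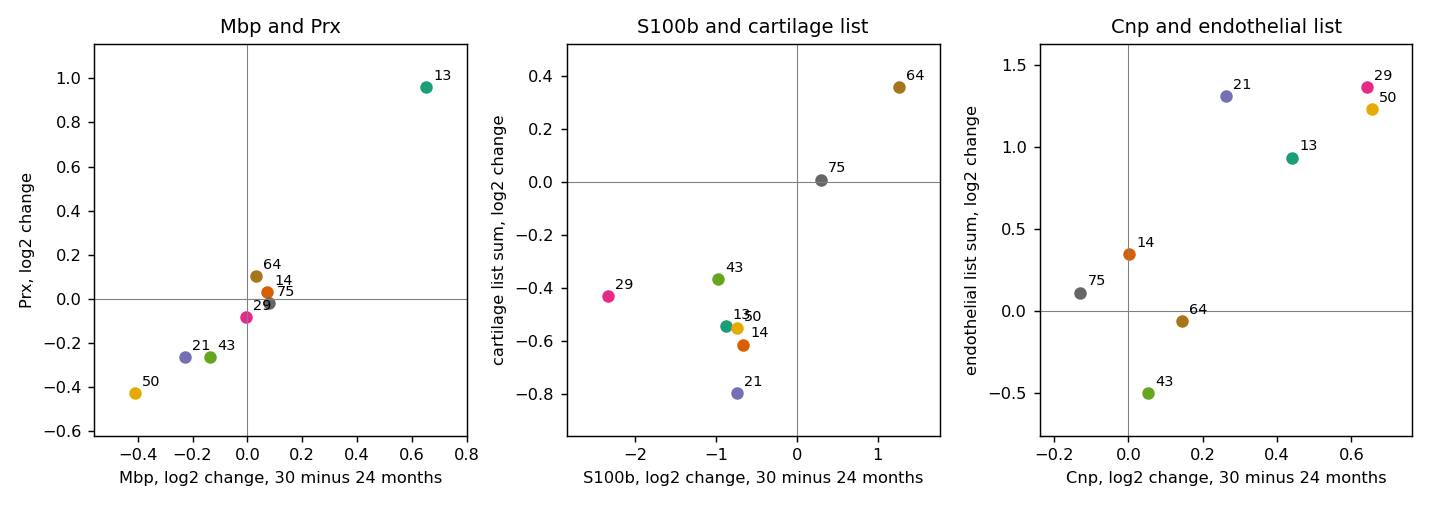
Log2 changes between 24 and 30 months in each of the 8 mice (points, numbered by mouse), for Mbp against Prx, for S100b against the summed level of the cartilage list and for Cnp against that of the endothelial list. Mbp and Prx lie along a line with mouse 13 far at its upper end (r = 0.98), while S100b and cartilage (r = 0.72) split into mice 64 and 75 and the rest.

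No gene of the other marker lists was called. Their median log2 fold changes were -0.46 for pigment cell, 0.34 for fat cell, 0.11 for T cell, 0.24 for macrophage, -0.17 for basal keratinocyte, -0.03 for differentiated keratinocyte, -0.38 for fibroblast and 0.84 for skeletal muscle genes. Apart from pigment cell and skeletal muscle, each of these lists held genes above and below 0. Macrophage genes had their lowest median r with Mbp (-0.58), Prx (-0.50) and Mal (-0.47), and basal keratinocyte genes had their highest with Mal (0.57), Mbp (0.51) and Prx (0.45).

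**Figure D5:**
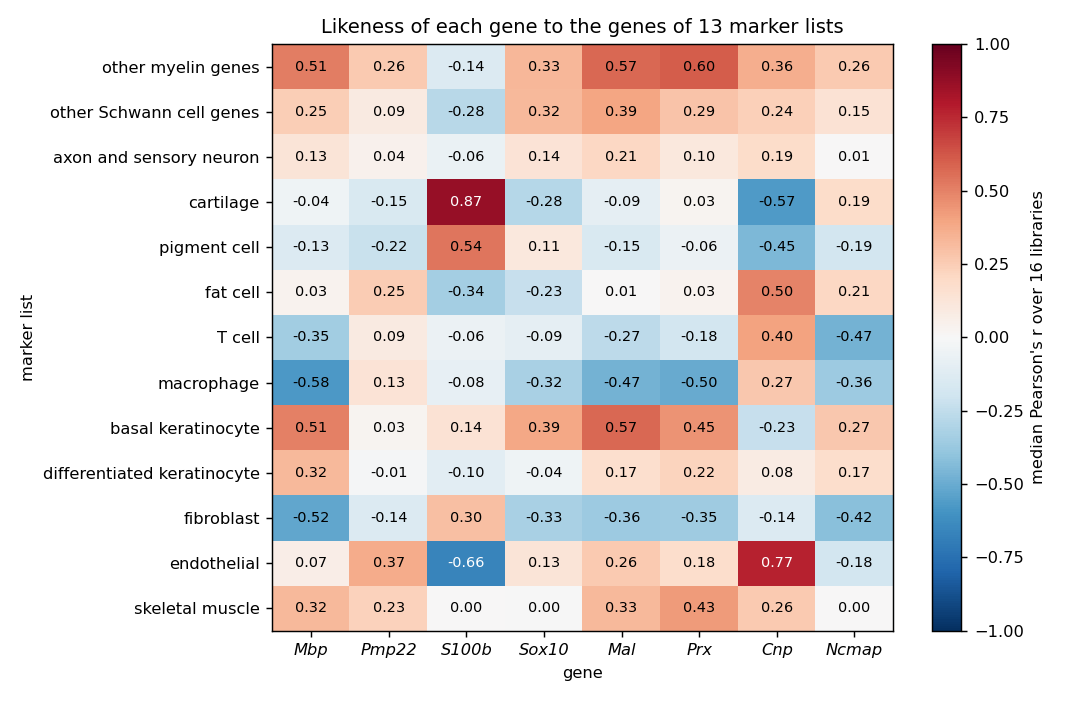
Median Pearson's r over the 16 libraries between each of the 8 genes (columns) and the tested genes of 13 marker lists (rows), from -1 in blue to 1 in red. Prx is highest with the other myelin genes (0.60), Mal and Mbp are about as high with basal keratinocyte genes (0.57 and 0.51) as with myelin genes (0.57 and 0.51), S100b is highest with cartilage (0.87) and Cnp with endothelial genes (0.77).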

How the data were processed

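RNA was measured in 16 ear biopsies of 8 mice. Per the labels and the study's methods, the authors prepared libraries with a TruSeq v2 kit, aligned reads to GRCm38 (mm10) with TopHat2 (2.1.0 per the labels) and counted them per Ensembl gene with HTSeq 0.6.1p1; base calling used CASAVA 1.8.4. The strand setting is not given in the sources used here. The deposited values are raw read counts, with 22967222 to 36162431 reads on genes per library.

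Symbols, loci and exon lengths came from GENCODE M21 (45143 of 45706 IDs matched; the rest held 0.130% of reads). Counts were scaled by TMM, filtered by filterByExpr (21526 genes kept) and tested with edgeR 4.0.16 (R 4.3.3), quasi-likelihood, with the mouse as a block and Benjamini-Hochberg adjustment; called means adjusted p under 0.05. The script was tested on simulated data. The pairing comes from the animal and did not show as a likeness of the libraries. The median correlation of deviations from the group means was -0.02 (from -0.43 to 0.32) between the 2 libraries of a mouse and -0.01 between libraries of different mice. CPM are TMM-scaled. RPKM divide them by the length of all annotated exons of a gene together. Within-mouse changes and likeness used log2(CPM + 0.5), with exact permutation tests over the 40320 orders of 8 mice (scipy 1.17.1). The precision is that of 8 pairs. The edgeR p-values rest on how the within-mouse change differed between mice, with estimates of spread partly shared over all genes tested. Each SE was derived from the fitted fold and the F statistic of its test.

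The 8 genes and the marker lists (13, of which 3 of nerve) were chosen with earlier results of these data known. Named genes were the 8, the 3 with the highest mean CPM of each nerve list, and for each of the 8 the 5 protein-coding genes with the highest r; others are named as chosen after their values were seen. Some genes of the myelin list are not reported here and were left out of the list and of the ranking. The relations to marker lists were added after seeing the data. Alternatives were DESeq2 1.42.0 (size factors and Wald test), no filter, no replicate block, a pseudocount of 2, Spearman's rho and leaving out each mouse.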

Additional observations from a re-analysis of the deposited data

Results flagged for a closer look

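In 24 groups of 8 values (the 24-month levels, the 30-month levels and the within-mouse changes of the 8 genes), 2 held a sample far from the others by Dixon's test at the 95% level, where chance alone gives about 1 in 20 groups, or 1.2 here. Both were changes of mouse 13: a log2 change of 0.65 for Mbp and of 0.96 for Prx. In the other 7 mice the log2 changes lay between -0.41 and 0.08 for Mbp and between -0.43 and 0.10 for Prx. The 2 values are from the same pair of libraries, and what set that mouse apart was not tested.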

How the results depend on the processing

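None of the 8 genes was called under any of the 12 alternatives, in which the smallest adjusted p of a member was 0.216. Their median log2 fold change was 0.04 to 0.05 in the fits with all mice and -0.01 to 0.08 with 1 mouse left out (-0.01 without mouse 13). Over all genes tested, 3 were called with no replicate block, 240 by DESeq2's Wald test and none in the other alternatives. Without the replicate block the log2 fold change of Prx was -0.0070, and dropping the block changed no call of a member.

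Folds close to 0 changed sign with the mouse left out: Mbp ran from -0.074 to 0.066, Mal from -0.018 to 0.12, Prx from -0.12 to 0.065, Ncmap from -0.065 to 0.14, Fa2h from -0.36 to 0.054 and Erbb3 from -0.074 to 0.097. Pmp22, Sox10, Cnp and S100b kept their direction. The number of pairs with correlated changes was 0 to 1 with 1 mouse left out, 0 without mouse 13, 29 or 50, where 7 mice remain; it was 1 under the other size factors and pseudocount. Endothelial genes among the 100 nearest to Cnp were 1 by Spearman's rho.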
